A study of Mus musculus with 2 samples.

Results

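The transcripts described here carry names tied to the moving machinery of the sperm tail. They cover axonemal dyneins, their assembly factors, radial spokes, the nexin-dynein regulatory complex, the central apparatus, and cilia and flagella associated proteins (CFAP). IQ-motif, EF-hand and nucleotide kinase genes with related names are included, and not all of these are known to be axonemal. All members were chosen by gene symbol alone, and 71 of the 4788 rows of the deposited table matched, which is 68 genes. *Dnah12*, *Efcab7* and *Iqcn* each filled 2 rows with identical values, on a chromosome and on an alternative contig, and are counted once below unless rows are named. No member was removed for low values. The 2 libraries were an aliquot of lysate kept as input and the RNA precipitated with an antibody against FMRP (FMRP RIP, called the precipitate where values are given), both from testis of adult wild type mice that carried no other treatment in the labels. Each group held 1 library, so no difference has a replicate check and no test between the groups was possible. The number of animals was not given in the sources used here, and no IgG library was used here.

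Every row of the table is a gene marked by the authors as higher after precipitation, so the direction of each member was set by the table and is not a result. The paper's methods also give a lower limit of fold change for these genes, so low ratios were cut off in advance. What could vary was how far each member was recovered above that limit and which members of each structure were listed. A gene without RNA in testis could not be listed, so unlisted does not mean tested and not recovered. The input held 30849871 reads and the FMRP RIP 36506932, as recovered from the steps of the deposited values, which are reads scaled to the library total (CPM). The listed genes took 14.2% of all reads in input and 55.2% in precipitate. Among the markers looked up, *Sycp1* was the only one of 9 germ cell markers listed (10.5 CPM in input, 23.8 CPM in precipitate) and *Deup1* the only one of 5 markers of multiciliated cells (23.5 and 131 CPM). None of 5 Sertoli, 5 Leydig and 2 red blood cell markers was among the listed genes, so the table could not be used to check the tissue. In a lysate of whole testis, fewer cells of a type and less RNA per cell cannot be told apart.

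FMRP is an RNA-binding protein best known as a regulator of translation in neurons, and it is also made in germ cells. The axoneme is a bundle of outer doublet microtubules around a central pair, and dynein heavy chains are very large ATP-driven motors that stand in outer and inner arms on each doublet and slide it along its neighbour. Intermediate, light intermediate and light chains anchor and regulate the heavy chains, radial spokes link the central apparatus to the arms, and the nexin-dynein regulatory complex ties neighbouring doublets together so that sliding becomes bending.

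Most members, like most rows of the table, passed a log2 ratio of 1. The log2 ratio of precipitate over input, with 1 CPM added to both values, was above 1 in 62 of 71 rows (87.3%), against 70.1% of all 4788 rows. Their median log2 ratio was 1.73, with quartiles of 1.29 and 2.31, beside a median of 1.35 and quartiles of 0.92 and 2.001 over all rows. In unique genes, 59 of 68 passed a log2 ratio of 1, and 47 lay above the median of all rows. In the highest 10% of the table by log2 ratio stood 12 members, and 1 member, *Dnah9*, stood in the lowest 10%. Summed over the 68 genes, the level was 4573 CPM in input and 17092 CPM in precipitate, or 0.457% and 1.71% of each library.

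**Figure D1:**
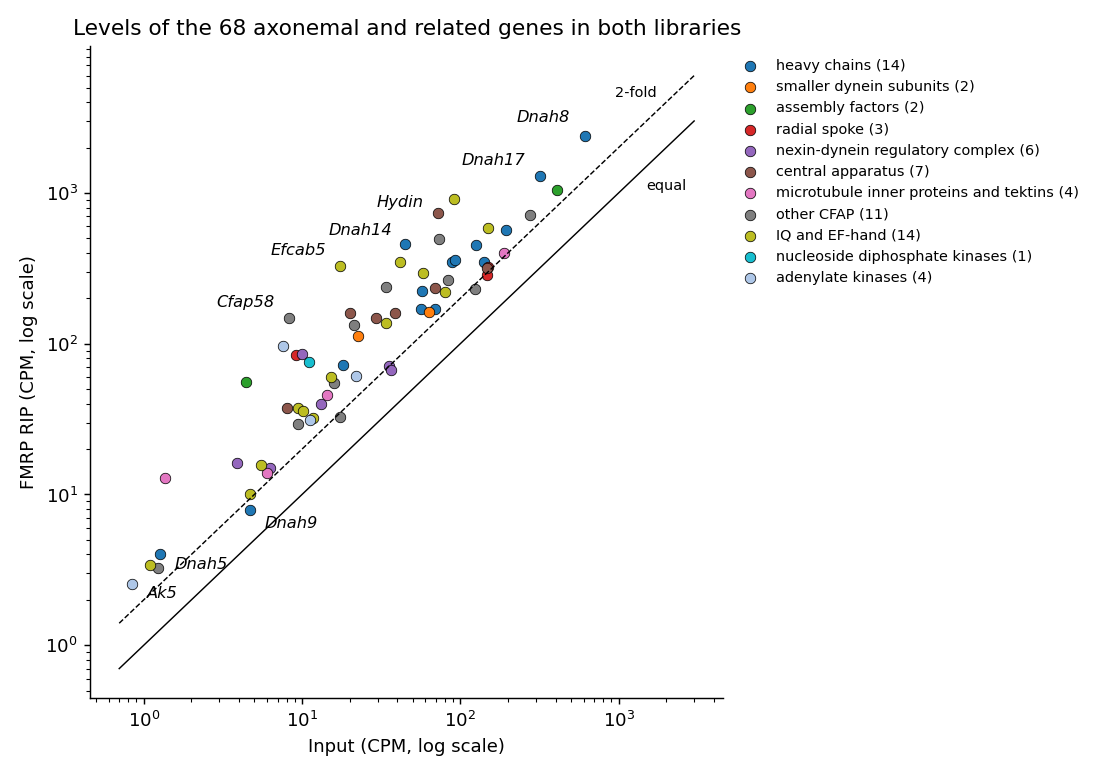
Each point is one of the 68 genes, with its input level on the x axis and its precipitate level on the y axis (CPM, both on log scales), coloured by group with the number of genes in parentheses. The solid line marks equal values and the dashed line a 2-fold difference, and all 68 genes lie above the solid line, as the choice of genes for the table requires.

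Each ratio below is precipitate over input in CPM, without the added 1 CPM, and carries an exact Clopper-Pearson interval at 95% computed from reads rounded to whole numbers. The intervals cover counting error only, since reads copied by PCR are not independent molecules. Input reads per member ran from 26 for *Ak5* to 18813 for *Dnah8*. The lower limit of the interval was above 1 for all 68 genes. This adds no support, since the genes were listed for being higher in these same 2 libraries. The limit was above 2 for 58 of them, a share that was not computed over all rows. Values that did not correspond to whole reads were found in 14 members, among them *Dnah7a*, *Dnah7b* and *Dnah7c*, which are closely related copies on chromosome 1, and the copies *Rsph3a* and *Rsph3b* on chromosome 17, so values within these families are uncertain. The spans of 15 members overlapped another gene in RefSeq, including *Dnah14* with *Lbr*, *Dnah17* with *Pgs1*, *Dnaic1* with *Enho*, *Dnali1* with *Gnl2*, *Dnaaf1* with *Taf1c* and *Rsph10b* with *Pms2*. Others were *Iqcg* with *Lrch3*, *Cfap43* with *Gsto1*, *Gsto2* and *Itprip*, *Ak3* with *Cdc37l1* and *Ak5* with *Zzz3*. Whether strand was used in counting is not given in the sources used here, so reads of such neighbours may be mixed.

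The heavy chains were listed almost completely, and most of them rose by similar factors. Of 15 heavy chain genes in the RefSeq annotation, 14 were listed, against 21.3% of all 21900 protein-coding genes. Of these 14, 13 had a log2 ratio above 1, beside 70.1% of all rows. *Dnah11* was not among the listed genes. Together the 14 genes went from 1822 CPM in input to 6840 CPM in precipitate, and they made up 39.8% of the summed level of all members in input and 40.02% in precipitate. Their log2 ratios had a median of 1.89 with quartiles of 1.36 and 1.96.

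The outer arm chains of the sperm tail rested on the most reads. *Dnah8* (ENSMUSG00000033826, GRCm38 chr17:30624354-30877365) had 609.8 CPM in input and 2369.7 CPM in precipitate, for a ratio of 3.89 (interval 3.83 to 3.95). *Dnah17* (ENSMUSG00000033987, chr11:118021723-118130634) had 318 and 1292 CPM, a ratio of 4.06 (3.98 to 4.15). Their ratios were close, although the intervals did not meet. The outer arm chains known from motile cilia of the airway rested on few reads. *Dnah5* had 1.26 CPM in input and 3.999 CPM in precipitate, for a ratio of 3.16 whose interval ran from 2.21 to 4.63 on 39 input reads. *Dnah9* had 4.70 and 7.89 CPM, a ratio of 1.68 (1.37 to 2.06), the lowest log2 ratio of all 68 members at 0.64. The added 1 CPM weighs on such low values, and the log2 ratio of *Dnah5* was 1.14 with it and 1.66 without.

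The inner arm chains had ratios from 2.45 to 4.03. *Dnah2* had 125.03 CPM in input and 454 CPM in precipitate, for a ratio of 3.63 (3.51 to 3.76). *Dnah10* had 56.2 and 171 CPM, a ratio of 3.03 (2.88 to 3.20). *Dnah1* had 195 and 563 CPM, a ratio of 2.89 (2.81 to 2.98). These 3 large inner arm motors thus lay below *Dnah8* and *Dnah17*. *Dnah6* had 57.3 CPM in input and 224 CPM in precipitate, for a ratio of 3.91 (3.72 to 4.12). *Dnah12* had 18.02 and 72.6 CPM, a ratio of 4.03 (3.67 to 4.42). *Dnah3* had 69.1 and 169.5 CPM, a ratio of 2.45 (2.34 to 2.58). *Dnah6* and *Dnah12* thus overlapped each other and *Dnah8*, whereas *Dnah3* did not.

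The copies of *Dnah7*, another inner arm chain, gave unequal ratios. *Dnah7b* had 93.2 CPM in input and 358 CPM in precipitate, for a ratio of 3.84 (3.69 to 3.999). *Dnah7c* had 88.9 and 349.7 CPM, a ratio of 3.93 (3.77 to 4.10). *Dnah7a* had 141 and 349 CPM, a ratio of 2.47 (2.39 to 2.56). The copies had similar values in precipitate, and *Dnah7a* was higher in input. How reads were shared among the copies is not given in the sources used here.

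*Dnah14* (ENSMUSG00000047369, chr1:181576559-181815774) stood apart from the other heavy chains. It had 44.5 CPM in input and 456 CPM in precipitate, for a ratio of 10.2 (9.70 to 10.8) and a log2 ratio of 3.33. In the order of ratios from *Dnah14* down to *Dnah9*, 10 of the 13 neighbouring pairs had overlapping intervals. The gaps fell below *Dnah14*, between *Dnah1* and *Dnah7a*, and between *Dnah3* and *Dnah9*. The wide interval of *Dnah5* (2.21 to 4.63) lay between *Dnah2* (3.51 to 3.76) and *Dnah10* (2.88 to 3.20), whose own intervals did not overlap. The count of overlapping pairs thus depends on genes with few reads and does not measure how alike the chains are.

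**Figure D2:**
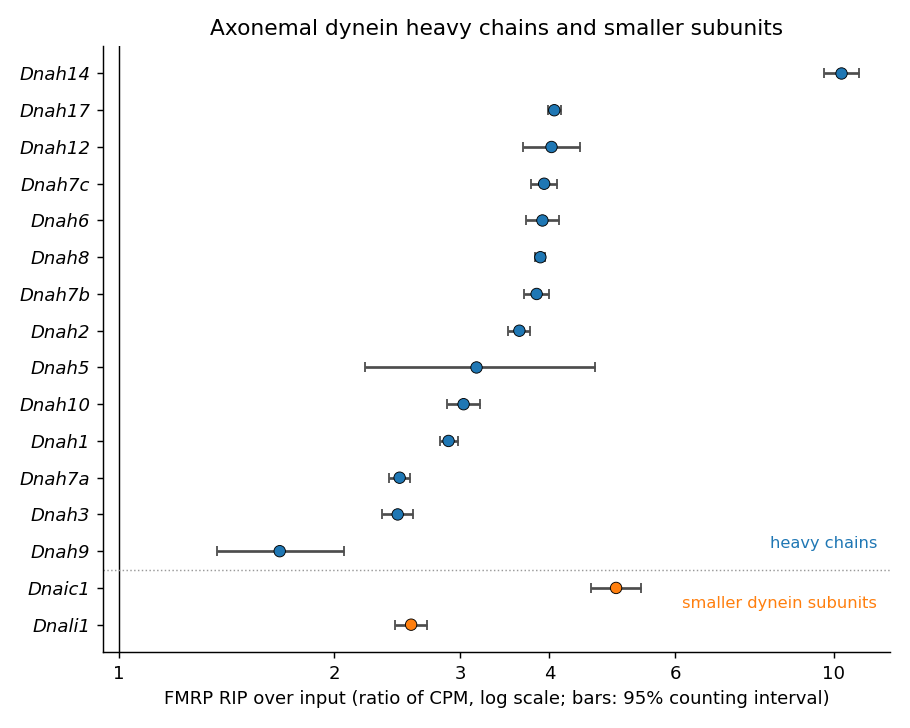
Points give the ratio of FMRP RIP to input (CPM over CPM, log axis) for the 14 heavy chains and the 2 smaller dynein subunits, and bars give the exact 95% interval from counting error. *Dnah14* lies far to the right at 10.2, *Dnah9* lowest at 1.68, and *Dnaic1* and *Dnali1* fall on either side of most heavy chains.

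The smaller subunits were listed less completely and lay within the range of the heavy chains. Of 5 genes named as axonemal intermediate or light chains in RefSeq, 2 were listed (40%, against 21.3% of all protein-coding genes). *Dnaic2*, *Dnal1* and *Dnal4* were not among the listed genes. *Dnaic1*, an outer arm intermediate chain, had 22.6 CPM in input and 112 CPM in precipitate, for a ratio of 4.96 (4.57 to 5.38). *Dnali1*, an inner arm light intermediate chain, had 63.6 and 163 CPM, a ratio of 2.56 (2.43 to 2.70). *Gnl2*, which lies over *Dnali1* on the opposite strand, is listed too. The median log2 ratio was 1.93 over the 15 heavy chain rows and 1.802 over the 2 smaller subunits, a difference of 0.13, or 0.09 when *Dnah12* was counted once. That difference is small beside the spread within either group. By log2 ratio, 1 heavy chain lay above *Dnaic1*, 9 lay between the 2 subunits and 4 lay below *Dnali1*. With 2 genes on one side and 1 library a group, the difference has no test.

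Subunits that carry other names in the table widened the range. *Wdr63*, an inner arm intermediate chain, had 23.0 CPM in input and 167 CPM in precipitate, a log2 ratio of 2.81. *Wdr78* had 17.4 and 68.1 CPM, a log2 ratio of 1.91. *Tctex1d1*, a light chain of the Tctex type, had 29.1 and 52.2 CPM, a log2 ratio of 0.82. The gene symbols used for the choice of members did not cover these 3.

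The assembly factors fold and put together dynein arms in the cytoplasm before they enter the flagellum. Of 9 such genes, 2 were listed (22.2%), near the 21.3% of all protein-coding genes. *Lrrc6* had 4.41 CPM in input and 56.1 CPM in precipitate, for a ratio of 12.7 (10.7 to 15.2). *Dnaaf1* had 410 and 1041 CPM, a ratio of 2.54 (2.49 to 2.59). *Lrrc6* was thus among the 4 highest members, and *Dnaaf1* near the median of all rows. *Dnaaf2*, *Dnaaf3*, *Dnaaf4*, *Dnaaf5*, *Dnaaf6*, *Dnaaf6b* and *Zmynd10* were not among the listed genes, and their values were not analysed here.

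Radial spoke genes were the group with the smallest listed share, 2 of 11 RefSeq genes, besides *Rsph10b*, which had no RefSeq match. That share (18.2%) was near the 21.3% of all protein-coding genes. *Rsph3a* and *Rsph3b*, copies of a spoke stalk gene, had log2 ratios of 0.96 and 1.10. *Rsph3a* went from 147 CPM in input to 287 CPM in precipitate, and *Rsph3b* from 149 to 320.3 CPM. *Rsph10b*, a spoke head gene, was far higher in ratio, with 9.18 CPM in input and 83.6 CPM in precipitate, for a ratio of 9.11 (8.07 to 10.3). The spoke head genes *Rsph1*, *Rsph4a*, *Rsph6a* and *Rsph9* were not among the listed genes.

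The genes of the nexin-dynein regulatory complex with these names were listed in 6 of 7 cases, all but *Drc3*. That share was 85.7%, against 21.3% of all protein-coding genes. Of these 6, 4 had a log2 ratio above 1, close to the share over all rows (70.1%). *Iqcg*, also known as DRC9, led with 9.95 CPM in input and 84.998 CPM in precipitate, for a ratio of 8.54 (7.59 to 9.64). *Drc1*, which is needed to assemble the complex, was lowest with 36.4 and 66.8 CPM, a ratio of 1.84 (1.71 to 1.97). The other 4 members, *Iqca*, *Iqcd*, *Gas8* and *Drc7*, lay in between at log2 ratios of 1.804, 1.53, 1.13 and 0.99. The members of this single complex thus differed more than 4-fold in their ratios. That range rests on *Iqcg*, whose span overlaps *Lrch3*, and the next highest ratio was 4.13 for *Iqca*.

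The central apparatus genes with CFAP names and *Hydin* were listed in 7 of 8 cases, all but *Cfap47* (87.5%, against 21.3% of all protein-coding genes). All 7 had a log2 ratio above 1 (70.1% of all rows did), with a median of 2.096. *Hydin* (ENSMUSG00000059854, chr8:110266977-110610253), a giant protein of the central pair projections, had 72.0 CPM in input and 737 CPM in precipitate, for a ratio of 10.2 (9.81 to 10.7). *Cfap65* was the lowest of the 7, with 147 and 319 CPM, a ratio of 2.17 (2.1004 to 2.25). The log2 ratios of *Cfap46*, *Cfap74*, *Cfap221*, *Cfap54* and *Cfap69* ran from 2.94 down to 1.73.

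Proteins that line the inside of the doublets were listed in 4 of 15 genes (26.7%, against 21.3% of all protein-coding genes). *Cfap53* rested on 42 input reads and had 1.36 CPM in input and 12.9 CPM in precipitate, for a ratio of 9.48 (6.90 to 13.3). *Cfap45* and *Ribc1* had log2 ratios of 1.62 and 1.09. None of the 5 tektins, the filament proteins of the doublet wall, was among the listed genes.

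Other CFAP genes spanned the widest range of ratios of the CFAP named groups. *Cfap58* (ENSMUSG00000046585, chr19:47937675-48035387), a gene needed for building the sperm flagellum, had 8.33 CPM in input and 149 CPM in precipitate, for a ratio of 17.9 (15.8 to 20.4). *Cfap36* had the lowest log2 ratio of the group, 0.87, with 17.4 and 32.5 CPM, a ratio of 1.87 (1.69 to 2.07). Of the 11 genes in this group, 8 had a log2 ratio above 1, close to the share over all rows (70.1%). *Cfap43* and *Cfap44*, partners in a complex that tethers inner arm dyneins, had log2 ratios of 1.66 and 2.59. The log2 ratio of *Cfap70*, an outer arm associated protein, was 0.88.

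The IQ-motif and EF-hand genes, whose proteins carry calmodulin or calcium binding sequences and of which not all are known to be axonemal, were listed in 14 of 28 genes. This was 50%, against 21.3% of all protein-coding genes. *Efcab5* (ENSMUSG00000050944, chr11:77089915-77188968) had the highest log2 ratio of all members, with 17.5 CPM in input and 328 CPM in precipitate, for a ratio of 18.8 (17.2 to 20.5). *Efcab1* was the lowest of the group, with 4.67 and 10.1 CPM, a ratio of 2.16 (1.78 to 2.64). Of these 14 genes, 13 had a log2 ratio above 1, beside 70.1% of all rows.

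Of the 4 nucleoside diphosphate kinase genes, only *Nme8* was listed (25%, against 21.3% of all protein-coding genes). *Nme8* had 11.1 CPM in input and 76.2 CPM in precipitate, for a ratio of 6.89 (6.16 to 7.73). Of 9 adenylate kinase genes, 4 were listed (44.4%, against the same 21.3%). *Ak9* had 7.62 CPM in input and 96.8 CPM in precipitate, for a ratio of 12.7 (11.1 to 14.6). *Ak7*, which is known from the axoneme, and *Ak3*, an enzyme of the mitochondrial matrix, had close log2 ratios of 1.43 and 1.40. *Ak5* had 0.843 and 2.55 CPM, a ratio of 3.02 (1.94 to 4.87).

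**Figure D3:**
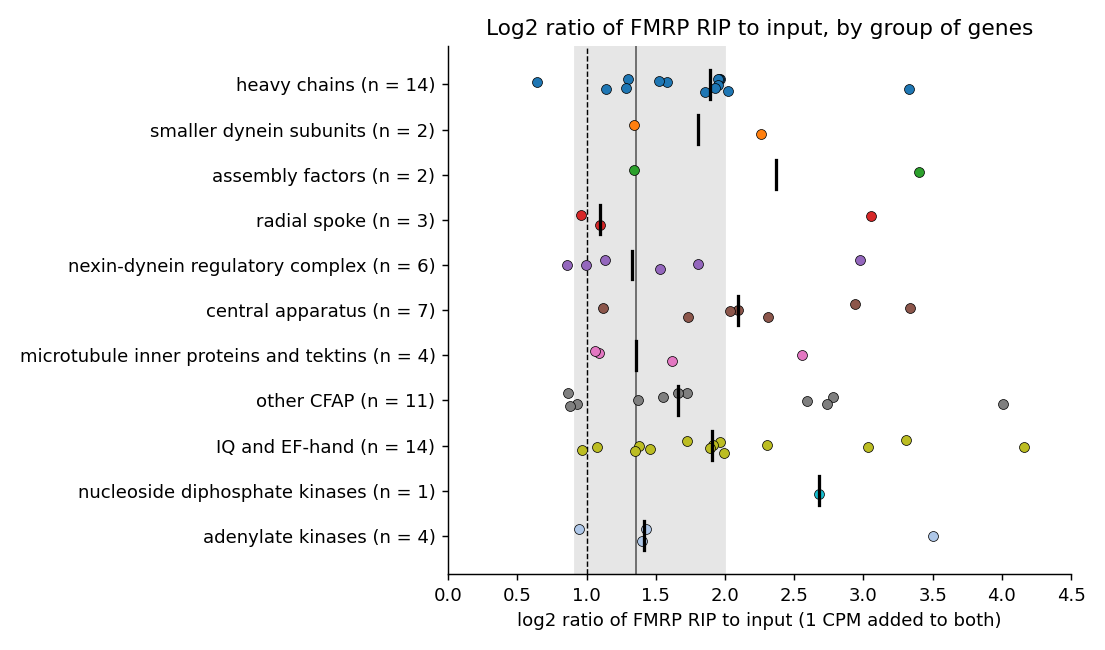
Each point is a gene, placed by its log2 ratio (precipitate over input, 1 CPM added to both), in rows by group, and short bars mark the median of each group, the dashed line a log2 ratio of 1, and the grey line and band the median and quartiles of all rows of the table. Medians run from 1.10 for the radial spoke to 2.68 for the single nucleoside diphosphate kinase, and every group of more than 2 genes spreads over more than 1 log2 unit.

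Genes of the axoneme, and of the fibres and sheath around it, that have other names were listed in part as well. Of 45 such genes looked up, 21 were listed (46.7%, against 21.3% of protein-coding genes), and 19 of these had a log2 ratio above 1 (70.1% of all rows did). Their median was 2.67, beside 1.35 over all rows. Among the 45, *Lrrc48*, *Dyx1c1*, *Heatr2* and *Pih1d3* are older names of *Drc3*, *Dnaaf4*, *Dnaaf5* and *Dnaaf6*. These unlisted genes are thus counted both here and in the family, which lowers the listed share of the 45. *Spag17*, a central apparatus gene, had 47.2 CPM in input and 1241 CPM in precipitate, a log2 ratio of 4.69, whereas *Spag6*, *Spag6l*, *Spag16* and *Spef1* of the same structure were not among the listed genes. *Ccdc39* and *Ccdc40*, the molecular ruler of the doublets, had log2 ratios of 2.94 and 2.67. *Morn3* was the lowest at 0.66. Of the genes of the outer dense fibres and fibrous sheath within these 45, *Odf2* had 924 CPM in input and 6271 CPM in precipitate, *Akap4* had 752 and 3118 CPM, and *Fsip2* had 30.05 and 305 CPM, whereas *Odf1* and *Akap3* were not among the listed genes.

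Which genes of the family were listed differed by group. Of 131 RefSeq genes with such names, 68 were listed (51.9%), against 21.3% of all protein-coding genes. *Cfap20dc* was listed under an older clone name and is counted here but not among the 68 members, and *Rsph10b* the other way round. The listed share was 93.3% for heavy chains and 87.5% for the central apparatus genes with these names. It was 18.2% for the radial spoke and 22.2% for assembly factors, near the share of all protein-coding genes.

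**Figure D4:**
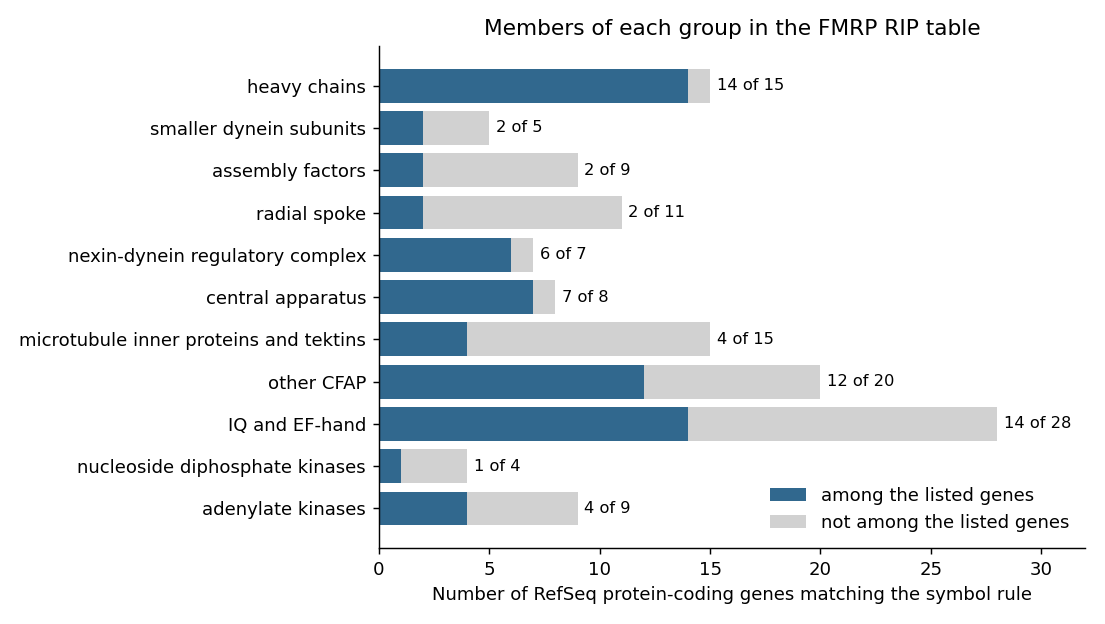
Bars give, for each group, how many RefSeq genes with such a name were listed and how many were not. Heavy chains are nearly all listed, as are the genes with these names of the nexin-dynein regulatory complex and of the central apparatus. Radial spoke and assembly factor genes mostly are not.

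Listed and unlisted genes also differed in length along the genome. The span from first to last annotated base had a median of 78.5 kb over the listed genes of the family and 22.1 kb over those not listed. Within spans under 10 kb, 12.5% of the family was listed against 4.91% of all genes, and from 10 to 30 kb these shares were 30.6% and 18.1%. From 30 to 100 kb they were 67.4% and 37.7%, and from 100 kb 72.2% and 49.2%. The family was thus listed more often than all genes in each of the 4 span classes, and long genes were listed more often in both. The shares over all genes include genes not expressed in testis, which could not be listed. Unlisted genes have no value here, so no share over expressed genes could be computed. Among listed members, Spearman's rho of log2 ratio with span was 0.28 over 68 genes, which share both libraries, and 0.16 over the 4743 rows on chromosomes. The 1875 other listed genes at least as long as the shortest heavy chain gene, 63.5 kb, had a median log2 ratio of 1.52, with 75.6% above 1. The part of gene length in the listing was not tested.

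**Figure D5:**
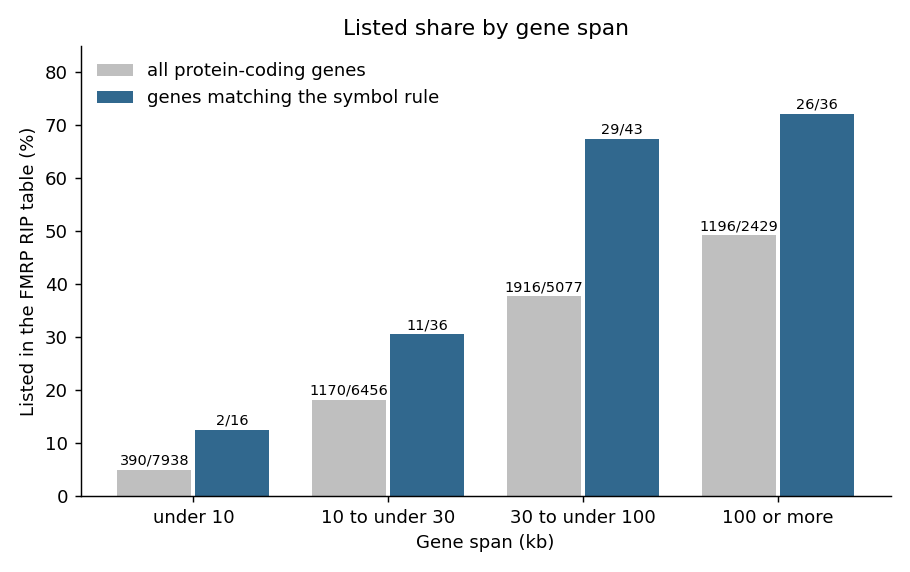
The share of genes that were listed (percent, y axis from 0) is drawn for 4 classes of gene span in kb, for the family chosen by symbol and for all protein-coding genes. Both rise with span, to 72.2% and 49.2% in the longest class.

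The kinesin superfamily and the cytoplasmic dyneins were set beside the family chosen by symbol. Of 48 kinesin genes, 35 were listed (72.9%), a larger share than the 51.9% of that family. Of these 35, 29 had a log2 ratio above 1, beside 70.1% of all rows. The median log2 ratio of the 35 was 1.47, beside 1.73 for the members chosen by symbol. Of 16 cytoplasmic dynein genes, the 2 heavy chains were listed and no smaller subunit was (12.5%). The share over all protein-coding genes was 21.3%. *Dync1h1*, the cytoplasmic heavy chain, had 301 CPM in input and 2374 CPM in precipitate, a log2 ratio of 2.98. *Dync2h1*, the heavy chain of intraflagellar transport, had 78.4 and 185 CPM, a log2 ratio of 1.23.

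Promoters were read for what the members share in sequence, although RIP measures RNA and says nothing of their use. RFX factors, which drive many ciliary genes, bind X-box elements, and the arm GTTGCCA was searched on both strands from 250 bases before to 50 bases after the start site in RefSeq promoters (GRCm38.p6), in which 49 of the 68 members matched an entry. It was found in 10 of the 49 (20.4%), in 13 of 58 family genes that were not listed (22.4%) and in 5.02% of 27025 promoters. Listed and unlisted family genes thus carried it in close shares. The cAMP response element TGACGTCA, known from promoters of round spermatids, was found in 3 of 49 (6.12%), those of *Iqcf3*, *Dnah6* and *Efcab14*, against 2.03% of all promoters. Among the 58 family genes that were not listed, 1 carried it (1.72%), so these shares rest on few genes. The windows below hold the arm, in capitals, of the members with the highest log2 ratio among those that carry it and of both heavy chains that do, each printed 5′ to 3′ on the strand of the gene, where TGGCAAC is the arm on the opposite strand. They lie at chr19:47937626-47937686 (plus strand) for *Cfap58*, chr8:110266936-110266996 (plus) for *Hydin*, chr16:33056172-33056232 (minus) for *Iqcg*, chr1:46066663-46066723 (plus) for *Dnah7b* and chr5:124725068-124725128 (plus) for *Dnah10*. A match is a description of the letters and not evidence of binding.
Cfap58: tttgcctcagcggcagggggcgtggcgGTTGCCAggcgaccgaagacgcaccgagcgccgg
Hydin: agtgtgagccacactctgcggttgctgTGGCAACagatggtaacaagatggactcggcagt
Iqcg: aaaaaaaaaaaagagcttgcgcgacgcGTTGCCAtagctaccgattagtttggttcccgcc
Dnah7b: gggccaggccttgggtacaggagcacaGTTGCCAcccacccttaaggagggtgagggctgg
Dnah10: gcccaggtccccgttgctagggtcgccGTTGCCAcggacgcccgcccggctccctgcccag
The first base of the arm lies at position -59 in *Cfap58*, -14 in *Hydin*, -19 in *Iqcg* and -163 in *Dnah7b* relative to the start site of the RefSeq promoter, and at 11 in *Dnah10*. The start site used for *Dnah7b* lies inside the annotated span of the gene, and so does its arm.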

How the data were processed

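RNA was sequenced from 1 input and 1 FMRP RIP library of adult wild type mouse testis. The authors deposited CPM values, scaled to the read total of each library, for genes they marked as higher after precipitation, using edgeR. The fold change and p-value columns of that table hold the authors' own comparison and were not used. The submitters' processing notes name STAR and GRCm38 (mm10); the counting tool and annotation are not given in the sources used here. CPM steps gave whole reads, within 0.005 of a read, for 78.4% of input and 78.8% of FMRP RIP values, so no count test was run. In input 1 read equals 0.0324 CPM and 3 reads 0.0972 CPM. In precipitate these are 0.0274 and 0.0822 CPM.

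From the CPM values, log2((FMRP RIP + 1)/(input + 1)) was computed for every row, with counts past 1, medians and exact Clopper-Pearson intervals of single ratios (scipy 1.17.1, pandas 2.3.3 and numpy 2.4.6 in Python 3.11.15, with plots from matplotlib 3.10.9), after the scripts were tested on simulated data. With 1 library a group no p-value is given. Named genes were all dynein subunits, and in each other group the members of highest and lowest log2 ratio, those the study names, and all members of groups of 5 or fewer. A result that this rule would name is not reported here. Other genes mentioned by name were chosen after their values were seen. Members and lists were chosen with earlier results of these data known. Names, spans and promoters came from RefSeq (GRCm38.p6), and 4672 table symbols matched. Protein length was planned but not run, and gene span was used in its place. Alternatives were other pseudocounts, a minimum level, a narrower list of symbols and another scaling.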

Additional observations from a re-analysis of the deposited data

How the results depend on the processing

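No result changed direction under any alternative run, but the table holds only genes marked as higher, so the signs of single ratios were already set. No paired analysis was possible because input and precipitate are 1 library each, and so none could be left out. The median log2 ratio of the members was 1.52 with a pseudocount of 5 CPM, which weighs most on genes of low level, and 2.67 when reads of all unlisted genes set the library sizes, a scaling that adds 0.94 to the log2 ratio before the pseudocount. Members above a log2 ratio of 1 numbered 39 when only dynein, spoke, DRC, CFAP, tektin and *Hydin* symbols were kept, by construction from fewer members. The count was otherwise lowest at 56 of 71 rows with 5 CPM, where 51.7% of all rows passed. It was highest at 71 of 71 with the scaling, where 99.96% of all rows did. The heavy chain difference ran from 0.02, with the older-named subunits added, to 0.15, without *Dnah5* and *Dnah9*. Leaving out these 2 genes or *Dnah14*, and all settings for the genes with other names, were chosen after seeing the data. Of 189 values of named members under 5 alternatives, 59 moved beyond their counting interval, 38 of them upward with the scaling, and none reversed. Depth limits genes such as *Ak5*, with 26 input reads.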
